A study of Mus musculus with 2 samples.

Results

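The heat shock proteins and chaperones were examined in the spleen cells that bind Zfra, Z(+), and in those that do not, Z(-). The members were 10 genes chosen by name: Hspa1a, Hspa1b, Hspa8 and Hspa5 of the HSP70 family, Hsp90aa1, Hsp90ab1 and Hsp90b1 of the HSP90 family, and Dnajb1, Hsph1 and Hspd1. The array's annotation listed a probe for 7 of the 10, each with 1 probe, among 19084 genes in all. Hspa8, Hsp90ab1 and Hspd1 had no listed probe and were not analysed here. Each fraction was 1 sample of total RNA from naïve NOD-SCID mice aged 6 to 8 weeks, sorted directly after isolation with neither culture nor treatment, and amplified and labelled with Cy5. These mice are homozygous for scid, a mutation of Prkdc, and do not form mature lymphocytes of the T and B lineages. A number of 8 stands in the design text without saying how many animals were pooled. The labels name a sort into Z(-) and Z(+), and the name Z stands for Zfra binding, as used in the study.

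Chaperones hold unfolded proteins and help them to fold. HSP70 proteins bind short stretches of unfolded chain, J-domain proteins such as DNAJB1 bring the client and trigger ATP hydrolysis, HSP110 proteins such as HSPH1 exchange the nucleotide, and HSP90 proteins finish the folding of kinases and receptors. When proteins are damaged in the cytosol, heat shock factor 1 binds heat shock elements in the promoters of the inducible chaperones. When folding fails in the endoplasmic reticulum, the unfolded protein response raises the chaperones of that compartment through elements of its own. The transcripts of Hspa1a, Hspa1b and Dnajb1 are known to rise when tissue is taken apart and cells are sorted.

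Some promoters of the members carry letters of these 2 kinds of element, and those of 4 members are shown as examples. The sequences are from RefSeq on GRCm38.p6 and are written from 5′ to 3′ on the gene's strand. They were read in windows from 250 bases before to 50 after each start, and a window was listed for 7 of the 10 members. Hspa8, Hsp90aa1 and Hsp90ab1 had no listed window. In Hspa1a (chr17:34972207-34972286, minus strand) and Hspa1b (chr17:34959289-34959368, minus strand), capitals mark the letters GAANNTTC, which are 2 units of a heat shock element and read the same on both strands.
Hspa1a: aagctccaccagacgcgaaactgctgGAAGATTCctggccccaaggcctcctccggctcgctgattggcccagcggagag
Hspa1b: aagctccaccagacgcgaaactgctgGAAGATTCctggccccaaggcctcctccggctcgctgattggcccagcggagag
In Hspa5 (chr2:34771970-34772069, plus strand) and Hsp90b1 (chr10:86705520-86705669, minus strand), capitals mark the ER stress element on either strand, which is CCAAT and CCACG with 9 bases of any kind between them.
Hspa5: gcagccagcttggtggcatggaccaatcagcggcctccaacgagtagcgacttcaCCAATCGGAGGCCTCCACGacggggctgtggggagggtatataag
Hsp90b1: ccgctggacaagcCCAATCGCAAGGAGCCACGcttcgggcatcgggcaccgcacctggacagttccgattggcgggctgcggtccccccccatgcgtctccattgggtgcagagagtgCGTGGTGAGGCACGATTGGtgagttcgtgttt
The heat shock letters of Hspa1a and Hspa1b start 104 bases before the start of the gene, and these genes are identical at 247 of the 250 bases before it. The ER stress element starts 65 bases before the start in Hspa5, and 212 and 107 bases before it in Hsp90b1. The letters GAANNTTC occur in 7.86% of all 32851 windows, and the ER stress element in 0.119%. Neither motif was found in the windows of Dnajb1. Those of Hsph1 hold GAANNTTC after the start. They also hold TTCNNGAA, 2 units in the other order, 33 bases before 1 listed start and 54 before the other. The letters TTCNNGAA occur in 8.52% of all windows. A match is a match of letters and does not show that a factor binds.

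The inducible and the endoplasmic reticulum chaperones differed little in intensity between the fractions. The differences of the 7 measured members, as log2 intensity of Z(+) minus that of Z(-), ran from -0.06 to 0.41 with a median of 0.05, while the median over all genes was 0.03. None was 2-fold higher or 2-fold lower. Of all genes, 8.71% lay past 2-fold, 2.44% upward and 6.27% downward in Z(+), so a count of 0 in 7 genes lies near the background and is no result about the members. Since each fraction is 1 sample, neither the sort nor the mice were repeated, and no test or p-value is given. Fewer cells of a type and less RNA per cell cannot be told apart in the RNA of a whole fraction. Intensities of different probes do not show which gene is the more expressed, and brightness is used only to set a range of signal.

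**Figure D1:**
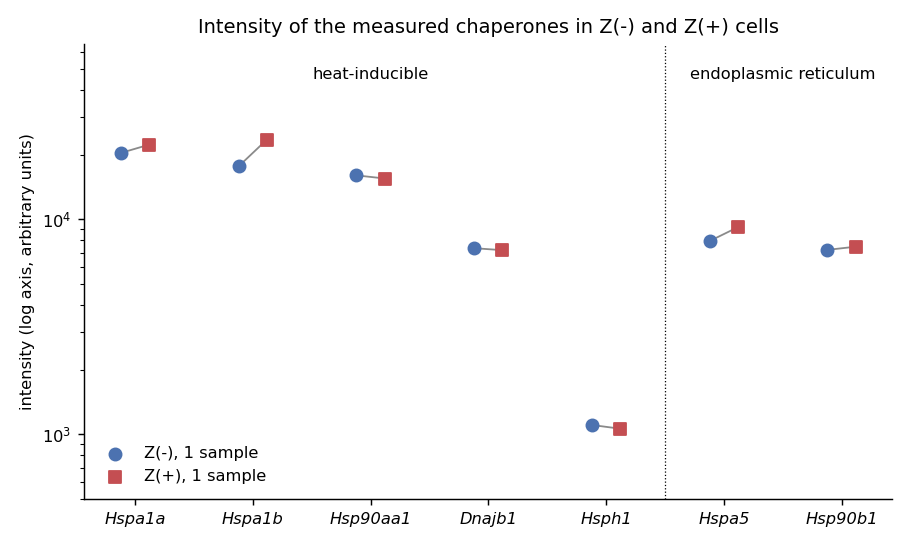
Intensity of the 7 measured members (log axis, arbitrary units) in the 1 sample of Z(-) cells (circles) and the 1 sample of Z(+) cells (squares), joined per gene. The pairs lie close together, and the widest gap is that of Hspa1b at 17677 and 23542.

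Hspa1a and Hspa1b encode the same stress-inducible cytosolic HSP70. Hspa1a gave an intensity of 20392 in the Z(-) cells and 22285 in the Z(+) cells, which is 1.09-fold higher in Z(+), and Hspa1b had 17677 and 23542, which is 1.33-fold higher. Both were higher in Z(+), and their log2 differences, 0.13 and 0.41, lie 0.29 apart. Since the transcripts are nearly identical and the probe sequences were not used here, cross-hybridization between the genes was not tested and the values cannot be assigned to one gene with certainty. Dnajb1, the J-domain partner of inducible HSP70, gave 7345 in the Z(-) cells and 7190 in the Z(+) cells, with a log2 difference of -0.03. Hsp90aa1, the stress-inducible HSP90 of the cytosol, had 16031 and 15501, with a log2 difference of -0.05. Hsph1, the HSP110 that exchanges nucleotide on HSP70, had 1104 and 1061, with a log2 difference of -0.06. The HSP70 pair was thus higher in Z(+), while its partner Dnajb1, its exchange factor Hsph1 and Hsp90aa1 were 1.02-fold to 1.04-fold lower. But both Dnajb1 and Hsp90aa1 lay above 0 after quantile normalization, and Dnajb1 also after median centring. There they still lay below the median over all genes, which was 0.073 after quantile normalization and 0.078 after median centring.

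Hspa5 encodes BiP, the HSP70 of the endoplasmic reticulum, which holds the sensors of the unfolded protein response inactive. It gave 7932 in the Z(-) cells and 9201 in the Z(+) cells, with a log2 difference of 0.21. Hsp90b1, which encodes GRP94, the HSP90 of the same compartment, had 7213 and 7464, with a log2 difference of 0.05. Both genes were higher in Z(+), by 1.16-fold and 1.03-fold. The median log2 difference of the 5 inducible members was -0.03 and that of the 2 members of the endoplasmic reticulum was 0.13. The median of the inducible members was thus 0.16 lower on the log2 scale, a gap smaller than the one between Hspa1a and Hspa1b. It does not hold for each gene. Of the 5 inducible members, 2 were higher and 3 lower in Z(+), and Hspa1b, at 0.41, lay above both Hspa5 and Hsp90b1. Inducible against constitutive cytosolic chaperones could not be compared, because neither Hspa8, which encodes HSC70, nor Hsp90ab1 had a listed probe.

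The spread of the technical arrays gives a scale for these differences. Each deposited intensity stands for 2 technical arrays, and the intensities of single arrays could be recovered for most probes between 400 and 1000, for 85.2% in Z(-) and 79.8% in Z(+). There, 95% of the array pairs lay within 1.11-fold in Z(-) and 1.15-fold in Z(+). From these arrays the log2 difference between the fractions had a technical SD of 0.066. The differences of Hspa1a, Hspa1b and Hspa5 exceeded 1 such SD, and those of the other 4 measured members did not. For Hsph1, the only measured member under 2000, single arrays gave 1134 and 1075 for Z(-), and for Z(+) 1057 and 1065. The difference of Hsph1 between the fractions is therefore smaller than the gap between its arrays in Z(-). This SD describes hybridization only, at intensities below those of the 7 measured members, and not the spread between sorts.

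Among the 3531 genes at least as bright as Hsph1, the dimmest measured member, the log2 differences had their middle 95% between -1.35 and 0.85. Of these genes, 64.5% differed by no more than Hspa1b, 6.94% lay past 2-fold, 1.64% upward and 5.30% downward in Z(+), and 49.2% had a difference above 0, as did 4 of the 7 measured members. The measured members thus lay where most bright genes did.

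**Figure D2:**
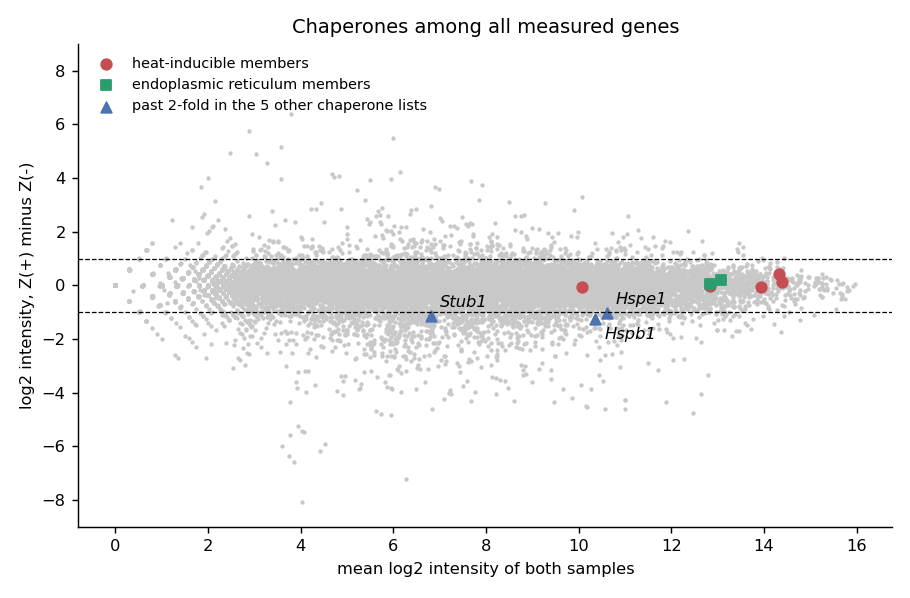
Log2 intensity of Z(+) minus Z(-) against the mean log2 intensity of both samples for all 19084 genes (grey), with the measured members and the 3 genes past 2-fold in 5 lists of other chaperone genes marked; dashed lines are 2-fold. The 7 measured members lie between -0.06 and 0.41, and Hspb1, Hspe1 and Stub1 lie below the lower line.

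Across 5 lists of other chaperone genes, 65 of 67 genes were measured, of which 0 were at least 2-fold higher and 3, or 4.62%, at least 2-fold lower in Z(+). This share lies near the 6.27% of all genes and is no result about the lists, which leave out prefoldin and most J-domain and FK506-binding proteins. Their median log2 difference was -0.03. The 3 genes were Hspb1, Hspe1 and Stub1.

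Of 14 measured heat shock factors, small heat shock proteins and other heat-inducible genes, 13 were within 2-fold, with a median log2 difference of -0.09. Hspb1, the small heat shock protein HSP27 that holds unfolded proteins without ATP, gave 2014 in the Z(-) cells and 850 in the Z(+) cells, which is 2.37-fold lower. Its technical arrays in Z(+) gave 826 and 874. Hspb8, another small heat shock protein, had 139 and 208, and Serpinh1, the collagen chaperone HSP47, had 66.0 and 44.4. These values lay in opposite directions, and Serpinh1 was dimmer than the median gene. Hspb1, named because it lay past 2-fold, differed more than the inducible members did. Its promoter holds the same letters 2 times, and a link between the letters and the values was not tested. The letters are shown in capitals (chr5:135887789-135887848, plus strand) for comparison with Hspa1a.
Hspb1: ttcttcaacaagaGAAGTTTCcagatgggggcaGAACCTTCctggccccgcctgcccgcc
The letters GAANNTTC were found in 6 of the 13 genes of this list with a promoter window.

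Of 13 measured HSP70 and HSP90 proteins and partners of the cytosol, 12 were within 2-fold. Their median log2 difference was -0.29, the lowest of the 5 lists. Of the 13, 9 had a lower intensity in Z(+), as did 8726 of all 19084 genes. Stub1, the ubiquitin ligase CHIP that marks clients of HSP70 for degradation, gave 167 in the Z(-) cells and 76.2 in the Z(+) cells. It was 2.18-fold lower, but its mean over both fractions was dimmer than the median gene. With a pseudocount of 50 its log2 difference was -0.78. Fkbp5, a co-chaperone of HSP90 in the glucocorticoid receptor complex, had 330 and 194, which is 1.70-fold lower. Its arrays, 328 and 331 for Z(-), and 197 and 190 for Z(+), lay closer to each other than the fractions did. The 8 subunits of the CCT chaperonin, which folds actin and tubulin, were all within 2-fold, with a median of 0.08. Cct3 had 960 and 1269, and Cct6a 1997 and 2636 over 2 probes with log2 differences of 0.20 and 0.60, and these were the largest differences of the complex.

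**Figure D3:**
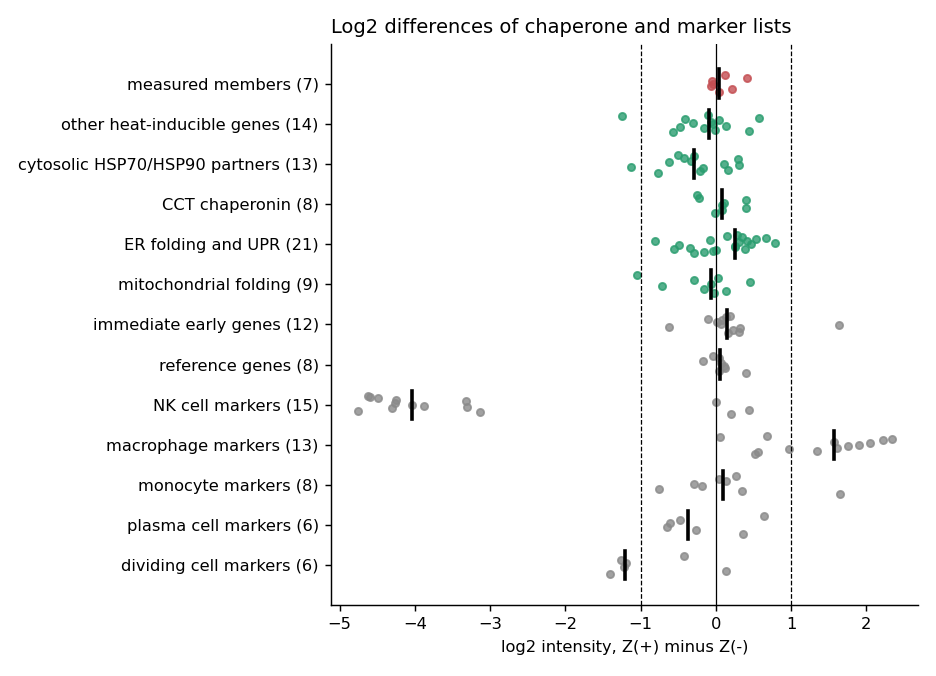
Log2 intensity of Z(+) minus Z(-) of each measured gene, by list (number of measured genes in brackets); black bars are medians, dashed lines are 2-fold, and UPR is the unfolded protein response. The members and the chaperone lists centre near 0, with medians from -0.29 to 0.25, while the NK cell markers have a median of -4.04 and the macrophage markers of 1.57.

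All 21 folding factors of the endoplasmic reticulum and targets of the unfolded protein response were within 2-fold. Their median log2 difference was 0.25, and 12 of the 21 had a higher intensity in Z(+), against 54.1% of all genes. Sdf2l1, a partner of BiP, gave 1562 in the Z(-) cells and 2706 in the Z(+) cells, and Pdia4, a disulfide isomerase, had 486 and 776. Hyou1, the HSP110 of this compartment, had 87.5 and 121, and Herpud1, which acts in the degradation of misfolded proteins, had 10400 and 13620. These 4 genes were 1.31-fold to 1.73-fold higher in Z(+). Others lay in the opposite direction: Dnajb9, a J-domain partner of BiP, was 1.75-fold lower at 1535 and 876, with arrays of 1634 and 1436 for Z(-), and of 901 and 851 for Z(+). Ddit3, the stress transcription factor CHOP, was 1.48-fold lower at 1888 and 1280, Creld2 was 1.40-fold lower and Atf4 1.27-fold lower. The targets of this response therefore did not share a direction. Xbp1, its transcription factor, had 25522 and 30399. The median of the list was 0.07 over the genes at or above the median brightness and 0.09 from the brightest probe of each gene, and the cause was not tested. The ER stress element shown for Hspa5 was found in 6 of the 18 genes of this list with a window, against 0.119% of all windows: Calr, Canx, Pdia6, Dnajc3, Creld2 and Syvn1. Of these, Creld2 and Syvn1 had a lower intensity in Z(+) and the other 4 a higher one. Xbp1, Pdia4, Hyou1, Herpud1, Ddit3, Creld2, Atf4 and the genes named for their element were picked with their values already known. The plasma cell markers, whose cells are rich in these chaperones, had a median of -0.37, with summed intensities of 1240 in Z(-) and 1037 in Z(+). Their part in the list was not tested.

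**Figure D4:**
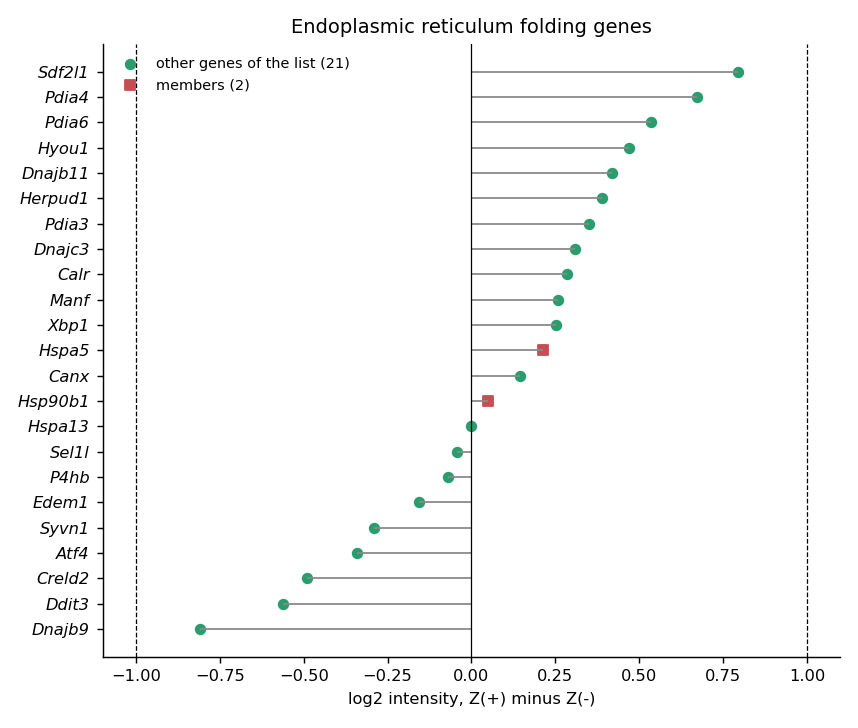
Log2 intensity of Z(+) minus Z(-) of the 2 measured members of the endoplasmic reticulum (squares) and 21 other genes of folding and the unfolded protein response (circles); dashed lines are 2-fold. The genes run from -0.81 for Dnajb9 to 0.79 for Sdf2l1, with Hspa5 at 0.21 and Hsp90b1 at 0.05.

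Of 9 other mitochondrial chaperones and proteases, 8 were within 2-fold, with a median log2 difference of -0.07. Hspe1, the HSP10 that closes the folding chamber formed by HSPD1, gave 2235 in the Z(-) cells and 1084 in the Z(+) cells. It was 2.06-fold lower, which is close to the threshold, and its log2 difference ran from -1.04 to -0.98 over the alternatives, within 2-fold after quantile normalization and after median centring. Hspd1, its partner in the complex, is its neighbour on chromosome 1 and is transcribed in the opposite direction. The stretch between the start of Hspe1 and 1 of the 2 listed starts of Hspd1 is shown because it holds 4 units of the heat shock element in a row, in capitals (chr1:55088028-55088097, plus strand, the strand of Hspe1).
Hspe1: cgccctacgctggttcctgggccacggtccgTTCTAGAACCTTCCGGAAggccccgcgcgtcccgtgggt
A heat shock element of 3 units on either strand, GAANNTTC followed after 2 bases by GAA, was found in 0.603% of all windows. It occurs in this window, in 1 of the 2 windows of Hspd1 and, after the start, in those of Hsph1. Chordc1 and Dnajb6 of the other lists, named only for this element, hold it as well. Clpp, a protease of the matrix, had 1241 and 753, which is 1.65-fold lower. Dnaja3, the J-domain protein of the matrix, had 169 and 231 over 3 probes that disagree, with log2 differences from -0.08 to 1.32.

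Of 15 NK cell markers, 12 were at least 2-fold lower in Z(+), with summed intensities of 101190 in Z(-) and 7106 in Z(+). Of 13 macrophage markers, 8 were at least 2-fold higher and all 13 were higher, with sums of 43796 and 80093. The count past 2-fold downward was 6 of 7 for basophil and mast cell markers, 5 of 5 for granulocyte precursors, 4 of 7 for T cells and 4 of 6 for dividing cells, and the count upward was 1 of 6 for B cells and 1 of 8 for monocytes. The T cell markers summed to 12483 in Z(-) and 2051 in Z(+), of which Cd3d gave 9971 and 1128. Cd4, Cd8a and Cd8b1 were within 2-fold and dimmer than the median gene. The B cell markers summed to 6037 and 5873. No marker was at or below an intensity of 1 in both fractions, but 1 is the floor set here and not a limit of detection. Ncr1 had 5.50 and 5.52, Ms4a1 6.52 and 5.52, and Pax5 6.48 and 5.39. These values lay far below the probe medians of 88.5 in Z(-) and 85.8 in Z(+), and such markers cannot show a difference. Of 12 immediate early genes that rise when tissue is taken apart, 11 were within 2-fold, and 10 had a higher intensity in Z(+), against 54.1% of all genes. Their median log2 difference was 0.15, and their intensities summed to 191307 in Z(-) and 226622 in Z(+). Of the members known to rise in the same way, Hspa1a and Hspa1b were higher in Z(+), and Dnajb1 was lower, with a log2 difference of -0.03. The early gene past 2-fold was Ier2, at 3685 and 11463, where 1 probe gave a log2 difference of 0.35 and the other of 2.93. Ier3 had 4373 and 2846, and Dusp1 36853 and 46018. Among 8 reference genes, Gusb had a log2 difference of 0.40 and Hprt of -0.17, and the median was 0.06. The part of these markers and of the handling in the values of the chaperones was not tested.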

How the data were processed

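The values deposited by the authors are linear intensities of 26423 probes of a 1-colour array, 1 value for each fraction, and each stands for 2 technical arrays of 1 RNA sample per the labels. Which background correction and normalization were used is "not given in the sources used here". The medians were 88.5 in Z(-) and 85.8 in Z(+), and 37 probes in each were at or below 0. The platform's annotation listed 1 gene symbol for 21876 probes and none for 4547. Values under 1 were set to 1, log2 was taken, and probes of a gene were averaged. No further normalization was applied. The difference was log2 of Z(+) minus log2 of Z(-), and 2-fold (a log2 difference of 1) was the size counted. With 1 sample per fraction, no test was made, and the number of arrays limits the precision.

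Single arrays were recovered by finding the 1 pair of whole numbers that gives a deposited value with the sample's factors, 0.990 and 1.01 in Z(-) and 0.968 and 1.03 in Z(+), with arrays at most 3-fold apart for the spread and at most 1.5-fold apart for single genes. Tested on simulated data, the search resolved 79.1% between 400 and 1000 with the factors of Z(-) and 74.9% with those of Z(+), and 97.9% and 95.0% between 1000 and 2000, and 100% of the resolved pairs were right. The search takes the whole-number structure as given, and a value without it can also be resolved at such brightness.

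The members and lists were chosen with earlier results of these data known. The rule for named genes was every measured member and, of each other list, the genes past 2-fold at or above the median brightness (log2 of 6.92) and the 2 others with the largest difference. Genes named outside it are said to be so in the text. The cell type markers named there also lie outside it. Promoters were matched by symbol. Alternatives were median centring, quantile normalization, loess with a span of 0.3, the brightest probe per gene, a pseudocount of 50, genes at or above the median only, and thresholds of 0.58 and 2 on the log2 scale. Python 3.11.15, numpy 2.4.6, pandas 2.3.3 and statsmodels 0.14.6 were used.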

Additional observations from a re-analysis of the deposited data

How the results depend on the processing

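The counts of members past 2-fold stayed at 0 in both directions under every alternative, also at a log2 threshold of 0.58. At a threshold of 2, a count of 0 could not change. Nor could the brightest probe or the limit to genes at or above the median change it. Each measured member has 1 probe and lies at or above that median. The median log2 difference of the members was 0.14 after quantile normalization, against 0.05, and Dnajb1 then lay at 0.06 and Hsp90aa1 at 0.01, above 0. Dnajb1 was also above 0 after median centring, at 0.013. The median over all genes moved as well, from 0.03 to 0.073 after quantile normalization and 0.078 after median centring. The inducible members relative to the other measured members, here Hspa5 and Hsp90b1, moved by less than the technical SD under the alternatives run. Median centring, which shifts all genes alike, could not move this gap, and neither could the brightest probe or the limit on brightness. The comparison with Hspa8 and Hsp90ab1 gave no value. Quantile normalization moved the medians of the heat-inducible list to -0.016 and of the cytosolic partners to -0.20, which the brightest probe put at -0.21. The list of the endoplasmic reticulum had 0.093 from the brightest probe, 0.14 with a pseudocount of 50 and 0.072 over genes at or above the median. Each of these kept its sign, and the cause was not tested. Hspe1 was within 2-fold after quantile normalization, at -0.98, and after median centring, at -0.999, which leaves 2 genes of the 5 lists past 2-fold. Stub1 was within 2-fold with a pseudocount of 50, at -0.78. No paired analysis was possible because each fraction is 1 sample.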

Other observations

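Prefoldin is the complex that hands unfolded actin and tubulin to the CCT chaperonin. Of its 6 measured subunits, 5 had a lower intensity in Z(+), as did 8726 of all 19084 genes, and 1 was at least 2-fold lower, against 6.27% of all genes. The median log2 difference was -0.84, against 0.03 over all genes. Pfdn1 had 1106 in Z(-) and 313 in Z(+), and its 2 probes differed by -2.66 and -0.98 on the log2 scale. Pfdn2 had 1588 and 837, Pfdn5 had 28732 and 17009, and Pfdn6 had 3839 and 1964. Pfdn4 had 614 and 464, where 1 probe gave a log2 difference of -0.95 and the other 0.14, and Vbp1 had 2765 and 3025. This family was picked after its values were seen, so its counts are a description.

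Of 45 measured genes of the J-domain families A, B and C, 2 (4.44%) were at least 2-fold lower and 0 at least 2-fold higher, against 6.27% and 2.44% of all genes. Dnaja4, a J-domain protein of the cytosol, had 282 and 114, and Dnajc22 had 128 and 22.4. Of 12 measured FK506-binding proteins, which turn prolyl bonds, 0 were at least 2-fold higher and 2 at least 2-fold lower, against the same shares of all genes. The latter were Fkbp3 at 3001 and 1424 and the dim Fkbp11, which was 2.92-fold lower. Fkbp1a, the target of FK506 and rapamycin, had 1213 and 2277, the largest difference upward in that family. These genes were chosen after their values were seen.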
